A study of Drosophila melanogaster with 2 samples.

Results

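The aminoacyl-tRNA synthetase genes of Drosophila melanogaster were examined for binding of the GFP-tagged CG7271 protein in early embryos. The genes were chosen by name. A protein-coding gene was taken when its symbol is 1 or 2 three-letter amino acid codes followed by RS, with or without the ending -m. The rule found 33 of 13945 protein-coding genes, of which 18 have no ending and are called cytosolic here and 15 end in -m. The symbol rule itself uses no measured value. Symbols that carry a subunit prefix, such as alpha-PheRS and beta-PheRS, fall outside it and are given among related genes.

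Aminoacyl-tRNA synthetases join each amino acid to its matching tRNAs, so every protein made on ribosomes depends on them. Animal cells translate in the cytosol and inside mitochondria, and many synthetases have a separate nuclear gene for each compartment, the mitochondrial one marked -m in flies. Some genes without the ending serve both places. GlnRS, GlyRS, HisRS, LysRS and ThrRS have no -m partner among the 33 genes, which alone does not show that each serves both. In humans 1 gene makes both forms of GlyRS, and the same holds for LysRS. The class called cytosolic here therefore follows the symbol alone and not the place where the enzyme works. Early fly embryos develop on proteins and messenger RNAs loaded by the mother before their own genes are switched on.

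Chromatin immunoprecipitation and sequencing had been done on whole embryos aged 0 to 4 hours, with all cell types mixed. They carried a transgene for CG7271 with GFP at its C-terminal end, and both biological replicates, numbered 2 and 3, are separate biosamples of that same transgenic line. An anti-GFP antibody was used according to the description, while the antibody field names CG7271. There is 1 group, so conditions could not be compared, and the control library was not analysed here. The labels used here do not say which promoter drives the transgene or whether the untagged gene is present.

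Binding was read from 4 peak lists. The replicate 2, replicate 3 and pooled lists hold 30000 peaks each. Another 2445 peaks form the irreproducible discovery rate (IDR) list, a method meant to keep peaks ranked alike in both replicates. In these files they were exactly the 2445 pooled peaks of highest signal. Being in the IDR list therefore does not by itself show that a peak ranked alike in both replicates. Ranks run from 1 for the highest value of the authors' signal, whose scale is not stated, so signals are compared only within a list. The median signal was 35.1 in replicate 2, 21.5 in replicate 3 and 51.3 in the pooled list. A promoter summit is the highest point of a peak within 500 bp of an annotated transcription start site (TSS) of the gene. The number of sequenced reads is unknown from these files. Intervals are exact 95% binomial intervals over genes and cover counting error only.

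An IDR summit lay at the promoter of 6 synthetase genes, and their summit sequences are shown first. The genes are SerRS, IleRS, GluProRS, ThrRS and GlnRS among the cytosolic members and ProRS-m among the others. The dm6 sequence within 50 bp of the summit is given 5′ to 3′ on the coding strand of the synthetase gene, from the RefSeq copy of the assembly and without annotated exons. Capitals mark a match to TATAAA or to GGTCACAC, the site of the promoter protein M1BP, on either strand.
IleRS (chr3L:22288376-22288476, plus strand): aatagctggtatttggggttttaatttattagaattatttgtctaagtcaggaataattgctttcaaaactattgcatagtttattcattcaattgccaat
GluProRS (chr3R:23958482-23958582, minus strand): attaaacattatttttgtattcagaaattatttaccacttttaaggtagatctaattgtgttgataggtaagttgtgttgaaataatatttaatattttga
ProRS-m (chr3L:2651931-2652031, minus strand): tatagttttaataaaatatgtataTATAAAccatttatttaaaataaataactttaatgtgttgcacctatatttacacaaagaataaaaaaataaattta
ThrRS (chr2L:12103510-12103610, plus strand): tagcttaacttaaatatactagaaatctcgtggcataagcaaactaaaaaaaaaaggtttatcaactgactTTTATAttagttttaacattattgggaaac
GlnRS (chr3R:25265716-25265769, minus strand): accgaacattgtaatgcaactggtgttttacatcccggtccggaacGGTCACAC

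These windows were rich in A and T except at GlnRS. Over the full 101 bp the GC content was 26.7% at IleRS, 20.8% at GluProRS, 13.9% at ProRS-m and 25.7% at ThrRS. It was 22.8% at SerRS, whose sequence is not printed since 94 of its 101 bases lie in annotated exons, and 49.5% at GlnRS. The GlnRS stretch is shorter for the same reason and ends with the M1BP match, which spans the start site and holds 6 exonic bases. The median over the 6 windows was 24.3%, compared with 33.7% over all 1211 IDR summits at protein-coding promoters, whose lower and upper quartiles were 26.7% and 44.6%.

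Most synthetase promoters held a summit in the pooled list, and few did in the IDR list. An IDR summit was present at 6 of 33 genes (18.2%, interval 6.98 to 35.5%), compared with 12.0% of all protein-coding genes. That share lies inside the members' interval, so the IDR list does not set the family apart. In the pooled list 26 of 33 genes had a promoter summit (78.8%, 61.1 to 91.0%), compared with 54.2% of protein-coding genes. No synthetase promoter was among the 500 highest pooled peaks, which reached 384 of the 13945 genes (2.75%), a share that corresponds to less than 1 gene in 33. Among the 1000 highest there were 3 of 33 (9.09%), compared with 5.33% of protein-coding genes.

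A larger share of cytosolic genes than of -m genes had a promoter summit in every list. In the IDR list they were 5 of 18 (27.8%, 9.69 to 53.5%) and 1 of 15 (6.67%, 0.169 to 31.9%). In the pooled list they were 16 of 18 (88.9%, 65.3 to 98.6%) and 10 of 15 (66.7%, 38.4 to 88.2%). The intervals of the 2 classes overlap in both lists, and the difference was not tested. Replicate 2 alone gave 14 of 18 cytosolic (77.8%) and 7 of 15 -m genes (46.7%), where 53.3% of all protein-coding genes had a summit. Replicate 3 alone gave 15 of 18 (83.3%, 58.6 to 96.4%) and 11 of 15 (73.3%, 44.9 to 92.2%), again against 53.3% of protein-coding genes.

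**Figure D1:**
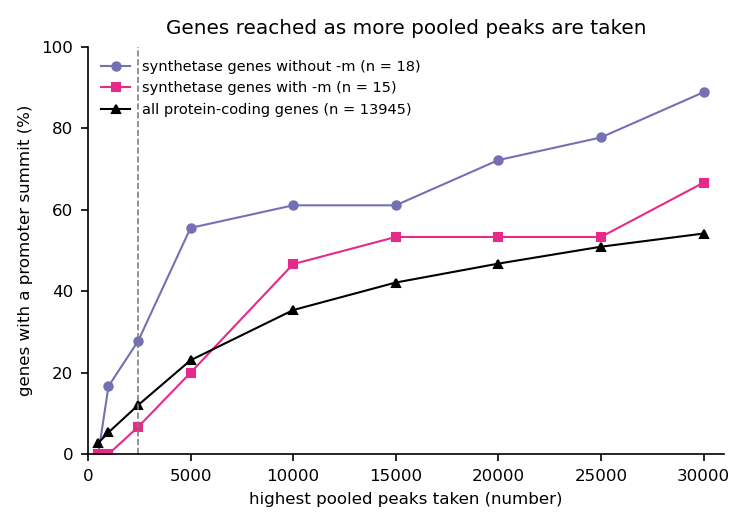
The share of genes with a promoter summit (y axis, %) is plotted against the number of highest pooled peaks taken (x axis) for 18 cytosolic synthetase genes, 15 -m genes and all 13945 protein-coding genes, with the dashed line at the 2445 IDR peaks. At 5000 peaks the shares were 55.6%, 20.0% and 23.0%, and at 30000 peaks 88.9%, 66.7% and 54.2%.

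Where the peaks ranked also differed between the classes. With genes that lack a summit placed below every rank, the median pooled rank was 4474.5 over the 18 cytosolic genes and 13773 over the 15 -m genes, compared with 23827 over all protein-coding genes. In replicate 2 the cytosolic median was 3888, and the -m median fell below the list with 7 of 15 genes found, while the median over all genes was 25357. In replicate 3 the medians were 5665 for cytosolic and 22049 for -m genes, compared with 25265 for all genes. By this median, replicate 3 placed the -m genes near the general level, and the cytosolic genes ranked above it in both replicates. By share, 73.3% of -m genes had a summit in replicate 3 and 46.7% in replicate 2, compared with 53.3% of protein-coding genes in each.

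**Figure D2:**
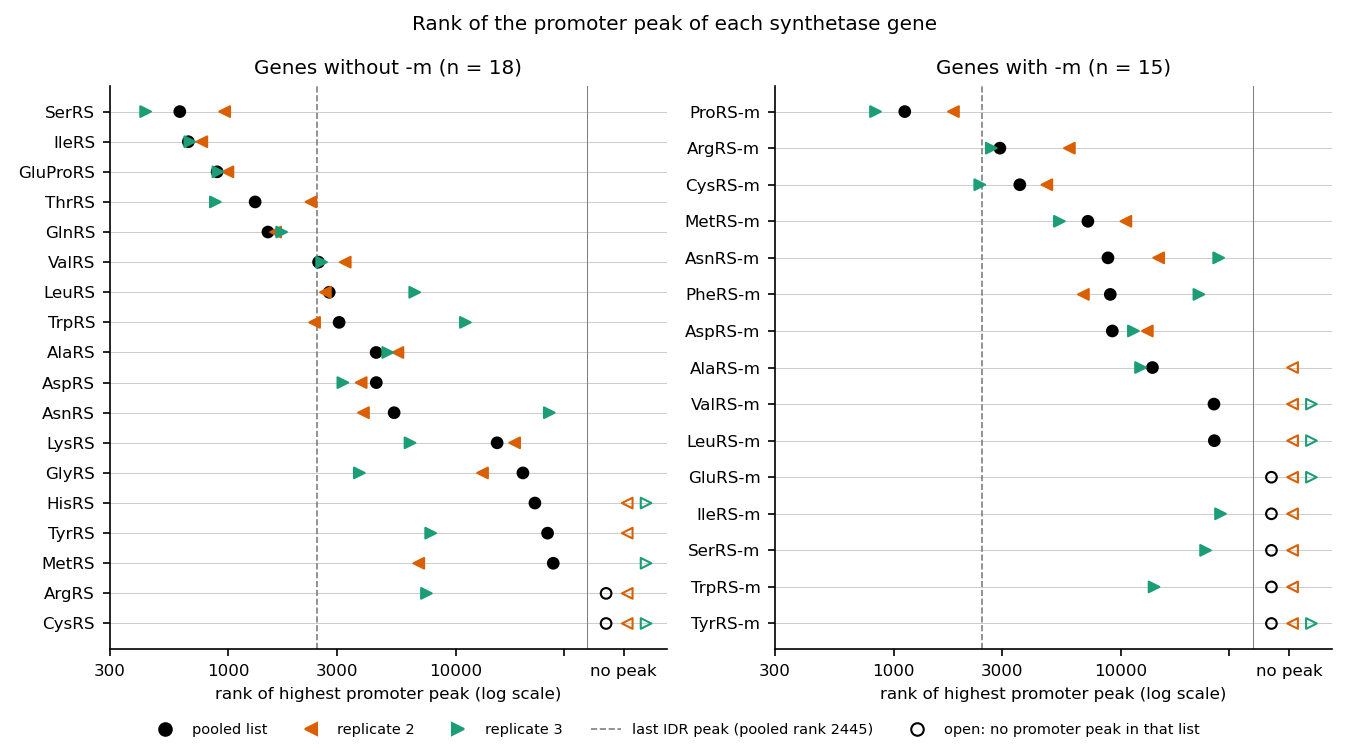
Each synthetase gene (y axis, ordered by pooled rank) is shown with the rank of its highest promoter peak (x axis, log scale) in the pooled list (circle), replicate 2 (left-pointing triangle) and replicate 3 (right-pointing triangle), cytosolic genes on the left and -m genes on the right. Open symbols in the last column mark genes with no promoter peak in that list, and the 6 genes whose circle lies left of the dashed line are those in the IDR list.

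SerRS, the seryl-tRNA synthetase gene, had the highest synthetase peak in the pooled list and in replicate 3, while IleRS was higher in replicate 2 (SerRS peak on 2L, 3037224 to 3037603). The SerRS signal was 105.1 in replicate 2 (rank 963), 108.5 in replicate 3 (rank 432) and 214.6 in the pooled list (rank 611). The summit lay 11 bp upstream of the SerRS start and 3 bp inside CG17260, whose start on the other strand is 8 bp away. Both replicates placed it in their upper peaks, with summits 33 bp apart.

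IleRS, which charges isoleucine tRNA, followed (3L, 22288236 to 22288615) with signals of 115.7 in replicate 2 (rank 764), 87.5 in replicate 3 (rank 676) and 206.3 in the pooled list (rank 666). Its summit lay almost midway between 2 start sites, 239 bp upstream of IleRS and 231 bp upstream of Hem, which encodes a subunit of the actin-regulating WAVE complex. The replicate summits were 2 bp apart.

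GluProRS encodes a fused enzyme that charges both glutamate and proline tRNAs and belongs to the multi-synthetase complex of animal cells. Its peak (3R, 23958342 to 23958721) had signals of 103.4 in replicate 2 (rank 995), 77.0 in replicate 3 (rank 899) and 181.3 in the pooled list (rank 892). The summit was 141 bp upstream of GluProRS and 119 bp upstream of AP-1sigma, the gene of a clathrin adaptor subunit. The ranks were close, while the replicate summits were 79 bp apart.

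ThrRS, the threonyl-tRNA synthetase gene, had a peak (2L, 12103370 to 12103749) with signals of 73.7 in replicate 2 (rank 2309), 77.7 in replicate 3 (rank 876) and 152.6 in the pooled list (rank 1311). The summit was 191 bp upstream of ThrRS and 275 bp upstream of Patsas. Among the 6 genes its rank differed most between replicates, by a factor of 2.64.

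GlnRS, which charges glutamine tRNA, had a peak (3R, 25265529 to 25265908) with signals of 85.3 in replicate 2 (rank 1614), 57.2 in replicate 3 (rank 1715) and 143.7 in the pooled list (rank 1493). The summit lay 2 bp downstream of its own start site and 125 bp upstream of RIOK2, which encodes a kinase of small ribosomal subunit assembly. The replicate summits were 1 bp apart, and the ranks differed by a factor of 1.06, the smallest difference among the 6 genes.

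ProRS-m, the mitochondrial prolyl-tRNA synthetase gene, was the single -m gene in the IDR list (3L, 2651791 to 2652170). Its signal was 80.7 in replicate 2 (rank 1832), 79.5 in replicate 3 (rank 831) and 162.8 in the pooled list (rank 1118). The summit was 131 bp upstream of ProRS-m and 107 bp upstream of the shared start of CG42304 and Snup, which encodes a snurportin. Its replicate summits were 84 bp apart, the widest gap among the 6 genes.

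The next cytosolic genes by pooled rank were ValRS, LeuRS, TrpRS, AlaRS and AspRS. ValRS (2R) missed it narrowly, with a pooled signal of 114.3 (rank 2494) where the lowest IDR peak had 115.4, and with ranks 3269 in replicate 2 and 2572 in replicate 3. Its summit lay 423 bp upstream of the gene and 90 bp upstream of Kdm4B, a histone demethylase gene. A lower pooled summit, at rank 3286, lay 195 bp from a ValRS start. The last synthetase gene inside the list was GlnRS.

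LeuRS had pooled rank 2779, with rank 2673 in replicate 2 and 6610 in replicate 3. TrpRS had pooled rank 3072, with rank 2396 in replicate 2, among that replicate's 2445 highest peaks, and 11050 in replicate 3. AlaRS stood at 4471, with 5577 and 5028. AspRS stood at 4478, with 3843 and 3190. Its summit was 318 bp upstream of an annotated internal start and 168 bp upstream of Nmda1, whose start was the nearer one in every list. AlaRS and AspRS thus had similar ranks in both replicates, though the AspRS summits of the replicates were 147 bp apart. TrpRS rested more on replicate 2.

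Among the -m genes the next were ArgRS-m, CysRS-m, MetRS-m, AsnRS-m and PheRS-m. ArgRS-m had pooled rank 2933, with rank 5933 in replicate 2 and 2688 in replicate 3 and summits 3 bp apart. CysRS-m had pooled rank 3589, with 4721 and 2391, the latter among the 2445 highest of replicate 3. MetRS-m stood at 7157 (10520 and 5358), AsnRS-m at 8770 (14668 and 26940) and PheRS-m at 8980 (6841 and 22049). The AsnRS-m pooled summit lay 215 bp upstream of AsnRS-m and 162 bp inside ste24a. The ste24a start was the nearer one in the pooled and both replicate lists. A lower pooled summit, at rank 22847, lay 7 bp from the AsnRS-m start. The PheRS-m summits of the 2 replicates were 311 bp apart, the widest gap in the family.

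The other genes with a pooled summit were AspRS-m at rank 9168, AsnRS at 5365 and 8 genes with pooled ranks between 13773 and 26926. These 8 were LysRS, GlyRS, HisRS, TyrRS and MetRS of the cytosolic class and AlaRS-m, ValRS-m and LeuRS-m. AsnRS ranked 3933 in replicate 2 but 25861 in replicate 3, the largest difference between replicates among the synthetase genes (a factor of 6.58). HisRS, ValRS-m and LeuRS-m had a promoter summit in the pooled list and in neither replicate list.

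No pooled promoter summit was found at CysRS, ArgRS, GluRS-m, IleRS-m, SerRS-m, TrpRS-m and TyrRS-m. The nearest pooled summit to a start site was 1014 bp away at CysRS, 1306 bp at GluRS-m and between 2341 and 5467 bp at the other 5. ArgRS ranked 7444 in replicate 3 alone, and IleRS-m, SerRS-m and TrpRS-m had summits in replicate 3 alone at ranks 27452, 23593 and 13995. CysRS, GluRS-m and TyrRS-m had none in any list. Read depth is not given in these files, so a missing peak means that none was listed, not that the protein was absent.

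The replicates were compared over the genes found in each. In the full lists 20 of 33 genes had a promoter summit in both replicates (60.6%, compared with 43.6% of all protein-coding genes). MetRS had one in replicate 2 only, 6 genes in replicate 3 only, and 6 genes in neither. For the 6 IDR genes the ranks differed between replicates by factors of 1.06 to 2.64, with a median of 1.67, and the summits by 1 to 84 bp, with a median of 18.5 bp. For the other 14 genes found in both, the factors ranged from 1.11 to 6.58, with a median of 2.09, and the median summit gap was 72 bp. The ranges overlap: AlaRS, AspRS-m and AspRS had factors of 1.11, 1.15 and 1.20, below the 2.64 of ThrRS, and 1 gene exceeded a factor of 5. The IDR list was itself drawn from both replicates, so the ranks of its members are a description and not separate evidence of agreement.

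Taking the 2445 highest peaks of each replicate gave 7 synthetase genes in each. Replicate 2 held the 6 IDR genes and TrpRS, against 12.2% of all protein-coding genes. Replicate 3 held the same 6 and CysRS-m, against 12.1% of protein-coding genes.

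Most synthetase promoters face another gene. A divergent promoter was defined as one with the start site of another protein-coding gene on the opposite strand within 1000 bp upstream. It was found at 16 of 18 cytosolic genes (88.9%) and 7 of 15 -m genes (46.7%), compared with 36.2% of all protein-coding genes. All 6 IDR genes had such a partner. Under the promoter rule 1 summit between facing starts counts for both genes, and the part of this counting in the shares that follow was not tested. Across the genome an IDR summit was present at 21.9% of divergent and 6.42% of other protein-coding genes, and a pooled summit at 75.8% and 41.9%.

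Within the divergent class the synthetase genes were closer to the genome. An IDR summit was present at 6 of 23 divergent members (26.1%, compared with the 21.9% above), of which 5 of 16 were cytosolic and 1 of 7 were -m. A pooled summit was present at 21 of 23 (91.3%), made up of 15 of 16 cytosolic and 6 of 7 -m genes. Of the 10 members with no divergent partner none had an IDR summit and 5 had a pooled one, 1 of 2 cytosolic and 4 of 8 -m genes. The arrangement therefore moved with the cytosolic and -m classes, and its part in their difference was not tested.

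**Figure D3:**
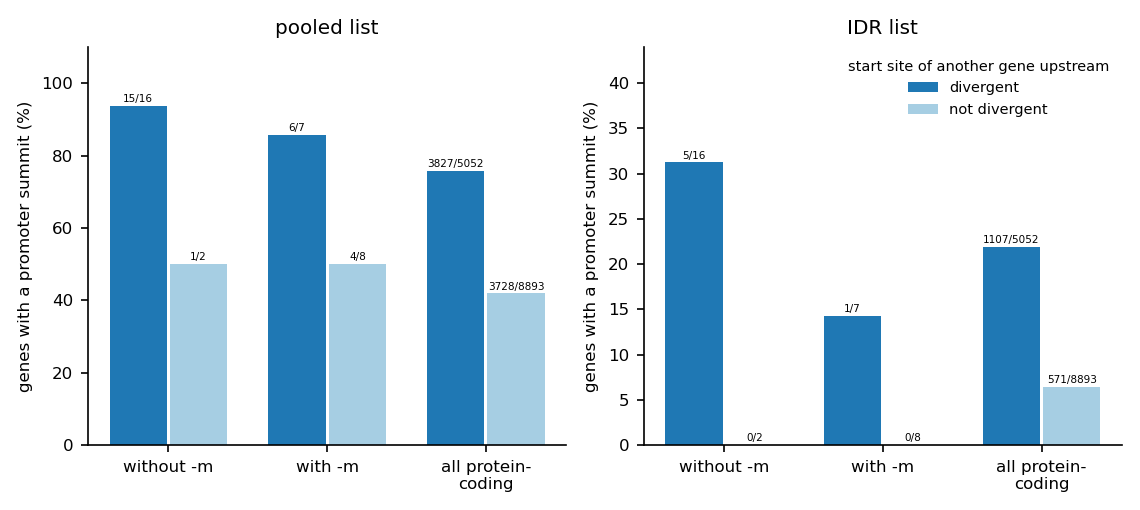
Bars give the share of genes with a promoter summit (y axis, %) in the pooled list (left) and the IDR list (right) for synthetase genes without and with -m and for all protein-coding genes, split by whether another gene starts within 1000 bp upstream on the opposite strand. Numbers above the bars are genes with a summit over genes in the class, and the pooled shares of divergent genes were 15 of 16, 6 of 7 and 3827 of 5052.

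Summits at synthetase genes lay mostly upstream, as they did over all protein-coding genes. In the IDR list 5 of 6 were upstream (83.3%, compared with 83.85% over all protein-coding genes with a summit). Of the 26 highest pooled summits, 21 were upstream of the member's own start (80.8%, compared with 70.3% over all protein-coding genes with a summit). Their median position was -88.5 bp, compared with -78.0 bp over all those genes. Of these summits 21 were also within 500 bp of another protein-coding gene's start (80.8%, compared with 43.4% of all such genes). The partners included Vps16A at TrpRS, a gene of endosomal tethering, and Dhc64C, the cytoplasmic dynein heavy chain gene, at LeuRS-m. At CysRS-m it was O-fut1, which encodes a fucosyltransferase that modifies Notch, and at GlyRS the centrosomal gene Plp.

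A summit between facing starts cannot be assigned to either gene from its position alone. The synthetase start was the nearest start to the summit at ThrRS and GlnRS, and the partner's start was nearer at SerRS, IleRS, GluProRS and ProRS-m. In replicate 3 the SerRS and GluProRS starts were the nearer ones. With a summit counted for its nearest start alone, 2 of 33 synthetase genes had an IDR summit, compared with 8.5% of protein-coding genes, and 18 had a pooled summit, compared with 45.3%. The partner was nearer by 8 bp at both SerRS and IleRS. At SerRS the replicate summits were 33 bp apart and disagreed on the nearer start, whereas at IleRS they were 2 bp apart and Hem was nearer in every list.

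**Figure D4:**
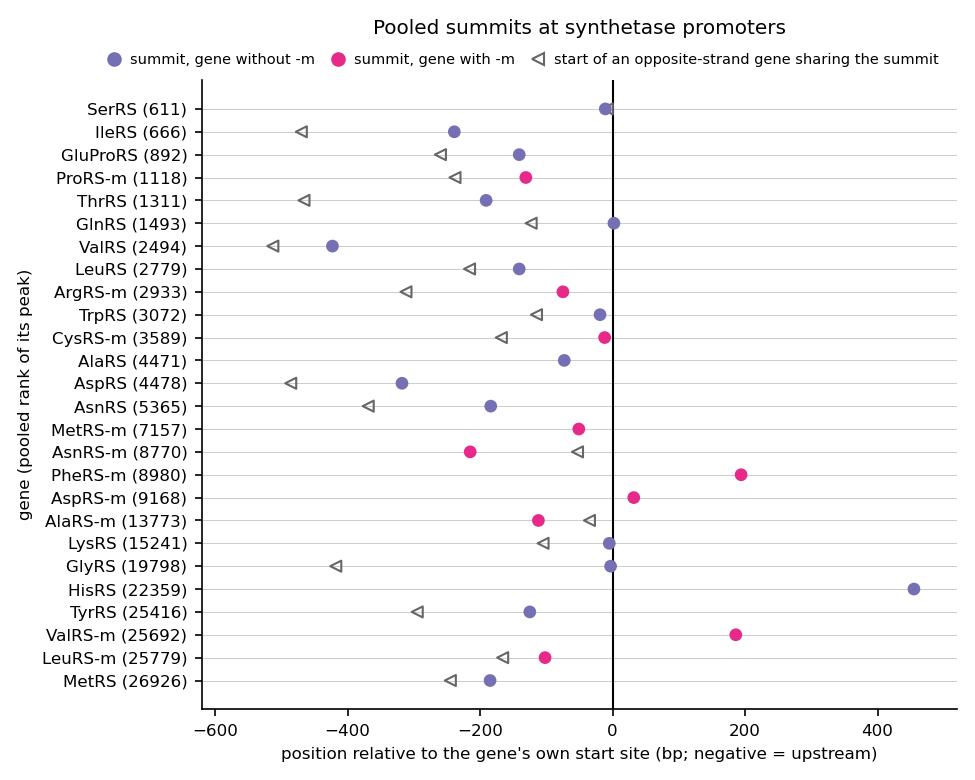
Each of the 26 synthetase genes with a pooled promoter summit (y axis, with its pooled rank) is shown with the position of that summit relative to its own start site (x axis, bp, negative upstream), cytosolic genes in violet and -m genes in pink. Open triangles mark the start of an opposite-strand gene that shares the summit, and in all 6 IDR genes the summit lies between or within 3 bp of the facing starts.

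Enzymes of the same amino acid were set side by side. In 14 pairs a -m gene has a cytosolic counterpart, with GluProRS serving for GluRS-m and ProRS-m. The cytosolic gene ranked higher in 11 pairs in the pooled list and the -m gene in 3. In 9 pairs both replicates placed the cytosolic gene higher, and in 2 pairs both placed the -m gene higher. Those 2 were arginine, with ArgRS-m at 2933 and no pooled summit at ArgRS, and cysteine, with CysRS-m at 3589 and none at CysRS. The methionine, proline and tyrosine pairs were not placed alike by both replicates.

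Wide separations were seen at serine, isoleucine and glutamate. SerRS and IleRS held ranks 611 and 666, whereas SerRS-m and IleRS-m had no pooled promoter summit and ranked 23593 and 27452 in replicate 3. GluRS-m had no promoter summit in any list. Proline was the pair closest in pooled rank, with GluProRS at 892 and ProRS-m at 1118, and replicate 3 reversed their order (899 and 831). Methionine also changed side between replicates, since MetRS (6889) ranked above MetRS-m (10520) in replicate 2 and had no summit in replicate 3, and TyrRS and TyrRS-m both lacked one in replicate 2.

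Peaks inside the genes were also counted, for the members alone and without a count over all genes. No IDR summit lay in the body of any of the 33 genes more than 500 bp from every start site. The pooled list had 8 such summits in 7 genes. The highest was in a 5′ untranslated exon of HisRS, 2106 bp from its start (rank 6890). CysRS, which had no promoter summit, had 1 in a coding exon 1668 bp from its start at rank 11862.

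Known promoter sequences were sought within 50 bp of the summits, on both strands. TATAAA was present at 3 of the 6 IDR summits (SerRS, ProRS-m and ThrRS), compared with 23.1% of the 1211 IDR summits at protein-coding promoters. These letters are all A and T, and the share was not adjusted for the low GC content of the windows. GGTCACAC was present at 1 of the 6, GlnRS, compared with 3.14%. At the 26 pooled summits TATAAA was present at 8 (30.8%, compared with 15.3% of 8168) and GGTCACAC at 2, GlnRS and AspRS-m (7.69%, compared with 3.1%). Of the 8 summits with TATAAA, 7 were among the 16 of cytosolic genes and 1 among the 10 of -m genes.

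The other sites were found in at most 1 of the 26 windows, too few windows to set most of these counts apart from the shares over all summits. The DNA replication-related element TATCGATA was in none of the 26, compared with 3.39% of all pooled promoter summits. The E-box CACGTG, a site of Myc, was in none of the 26 either (1.33% of all), and nor was CAGGTAG, a site of the early activator Zelda (0.686% of all). GAGAG was found at TrpRS alone (3.85%, compared with 12.9% of all). The letters TGATGNAA, resembling sites of ATF4, an activator of synthetase genes in mammals, were found at HisRS alone (3.85%, compared with 1.26% of all).

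Base composition at pooled summits also differed between the classes. The median GC content was 29.2% over the 16 cytosolic windows and 44.1% over the 10 -m windows, compared with 39.6% over all 8168. The cytosolic windows ranged from 20.8% to 49.5% and the -m windows from 13.9% to 70.3%, so the ranges overlap. The part of base composition in the difference between the classes was not tested.

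Related genes of tRNA charging and use were taken from lists grouped by role, of which 33 of 34 symbols matched. An IDR promoter summit was present at 5 of these 33 (15.2%) and a pooled one at 28 (84.8%), beside 12.0% and 54.2% of all protein-coding genes. The IDR share is thus near that of all genes, and the groups below, of 2 to 12 genes each, are described by their counts alone. Both subunit genes of cytosolic phenylalanyl-tRNA synthetase had a pooled summit. beta-PheRS was in the IDR list (rank 1065, signal 166.5, with ranks 1182 and 1347 in replicates 2 and 3), and alpha-PheRS had pooled rank 6422. The scaffold genes of the multi-synthetase complex had no IDR summit, and AIMP3 (13605) and AIMP2 (14705) had pooled ones. AIMP1 had no pooled summit but ranked 17776 in replicate 2 and 18079 in replicate 3. The genes of the mitochondrial amidotransferase, which makes glutaminyl-tRNA by converting glutamate on the tRNA, had no IDR summit and 2 of 3 had a pooled one.

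Of 11 genes for bringing charged tRNA to the ribosome, 2 had an IDR summit and 9 a pooled one. eEF1gamma, which encodes a subunit of the exchange complex that recharges the elongation factor with GTP, ranked 29 with a signal of 673.4 (32 and 35 in the replicates), above every synthetase gene, and eEF1alpha1, the factor that carries the tRNA, ranked 917 (1493 and 713). eIF2gamma, part of the factor that brings the initiator tRNA, ranked 2453, just outside the IDR list. Its ranks differed widely between replicates, with 1253 in replicate 2 and 14630 in replicate 3. Of 12 tRNA maturation genes 2 had an IDR summit and 11 a pooled one. Tcs5, which acts in a modification of tRNA next to the anticodon, ranked 8, and RNaseZ, the tRNA 3′ end-processing nuclease gene, ranked 1594. Both summits are shared with another gene, CHMP2B at Tcs5 and CG12909 at RNaseZ. The kinase gene Gcn2, which senses uncharged tRNA, and crc, the fly ATF4 gene, had pooled ranks of 7176 and 18810 and no IDR summit.

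Set beside other translation genes, the synthetases had a share close to that of mitochondrial ribosomal protein genes. An IDR promoter summit was present at 14 of 73 of those (19.2%) and at 11 of 61 initiation, elongation and release factor genes (18.0%), next to 18.2% of synthetase genes. Cytosolic ribosomal protein genes stood at 74 of 92 (80.4%, 70.9 to 88.0%), an interval that does not overlap that of the 33 synthetase genes. These counts were not tested against each other.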

How the data were processed

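Peaks came from 2 ChIP-seq replicates of whole embryos of 1 transgenic line. Per the deposited notes beside the files, replicate lists came from single alignments with a control, the pooled list from both, and the IDR list from all 3 lists, on dm6. The caller, the aligner and their thresholds were not given in the sources used here. In these lists the authors deposited a signal value per peak, on an unstated scale, and a summit offset. Tested on the files, the IDR peaks were the 2445 pooled peaks of highest signal.

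Start sites came from Ensembl release 115 on the major chromosome arms except Y, without transposable elements (23584 annotated 5′ ends of 18164 genes). Its assembly is that of the RefSeq sequence, and all 33 annotated start codons read ATG there. A summit counted for every gene with a start within 500 bp, and a gene took its highest such peak. Shares and exact intervals were computed with Python 3.11.15, pandas 2.3.3 and scipy 1.17.1, and the assignment was tested on simulated data. Genes were named by rule: all members, with ranks for the IDR members and the 5 next of each class, genes sharing their summits, and listed genes with an IDR summit or among the 5 highest pooled ones. Ranks of other members, and AIMP1, AIMP2, AIMP3, alpha-PheRS, eIF2gamma, Gcn2 and crc, were added after their values were seen. The members and lists were chosen with earlier results of these data known, and no test over members was made. The divergent arrangement was added after seeing the data.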

Additional observations from a re-analysis of the deposited data

How the results depend on the processing

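Read depth is unknown, and 2 replicates of 1 group allow no test, so these limits concern counts. No paired analysis was possible because there is 1 group. Over 48 alternatives of the 6 counts (family, cytosolic and -m genes, IDR and pooled lists), 41 stayed within 1.5 times the reported count. This measure leaves aside the share over all protein-coding genes, which changes with the setting. By nearest start alone the IDR counts were 2 of 33 for the family, 2 of 18 cytosolic and 0 of 15 -m. All protein-coding genes then stood at 8.5%. Where the peak interval had to overlap a start, 3 of 18 cytosolic genes were left (IleRS and ThrRS were lost). The share over all protein-coding genes was then 8.13%. The 1222 highest IDR peaks also left 3 (ThrRS and GlnRS were lost), against 6.33% of protein-coding genes. Starts within 1000 bp gave 2 of 15 -m genes, adding LeuRS-m, against 13.7% of protein-coding genes. Leaving out replicate 2 or 3 gave 1 to 2 -m genes, the added gene without replicate 2 being CysRS-m. The share over all protein-coding genes was 12.1% without replicate 2 and 12.2% without replicate 3. All 6 IDR genes were kept when either replicate was left out, that is, among the 2445 highest peaks of the other. The IDR list was drawn from both replicates, so this is not separate evidence of agreement. Of the 26 pooled genes, 22 were kept without replicate 2 and 21 without replicate 3. All pooled counts stayed within 1.5 times, and they could not have risen beyond that, since the groups hold 33, 18 and 15 genes. By nearest start alone, pooled summits were at 18 of 33 members, 11 of 18 cytosolic and 7 of 15 -m genes. The share over all protein-coding genes was then 45.3%, compared with 54.2% in the main setting. With motif windows of 100 bp each side 4 of 6 IDR genes held TATAAA, as did 4 of 7 without replicate 2 and 2 of 7 without replicate 3. Without replicate 3 the M1BP match was at 2 genes of 7 and GAGAG at 1. The cause of these changes was not tested.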
